A study of Mus musculus with 19 samples.

Results

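The histone cluster genes are the mouse genes whose symbols start with Hist1h, Hist2h, Hist3h or Hist4h. They were chosen by symbol alone, and 69 of the 28692 genes in the RNA tables met the rule. The 69 members comprised 6 genes for linker histone H1 and 19 for H2A, 19 for H2B, 12 for H3 and 13 for H4, the core histones around which DNA is wound. They were read in thymocytes, the developing T cells of the mouse thymus, by CITE-seq, which counts RNA molecules and bound antibodies in the same cells.

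The series held 19 lanes from 17 female mice of 4 to 8 weeks, a number of mice that limits every test given here. Wild-type C57BL/6 mice (B6) supplied 5 replicates. In CD4-fated mice most T cells are selected towards the CD4 lineage. These were 2 AND and 2 OT-II mice, both TCR transgenic (TCRtg) for receptors that recognise MHCII, and 2 MHCI-/- mice lacking B2m. CD8-fated mice were 2 F5 and 2 OT-I mice, TCRtg for receptors that recognise MHCI, and 2 MHCII-/- mice lacking H2-Ab1. The paper reports that a few cells of lineage-restricted mice take the other lineage, and such cells were not removed here. AND and F5 mice were also Rag1-/-, so that the transgene supplied the only receptor of their T cells, and the F5 transgenes were made with CD2 sequences. The MHC-deficient mice and wild-type replicates 1 to 3 were sorted for CD5+TCRB+ thymocytes, which enriches for cells in positive selection, and all other mice were unsorted. The lanes fell into 3 experiments by their titles. Experiment 1 held AND, F5 and wild-type replicate 1, experiment 2 held all MHC-deficient mice with the second AND and F5 mice and wild-type replicates 2 and 3, and experiment 3 held all OT-I and OT-II mice with wild-type replicates 4 and 5, so that a genotype and its experiment cannot be told apart for the MHC-deficient, OT-I and OT-II mice.

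Dividing cells must package a new copy of their genome, and most histone genes are transcribed in bursts during S phase, when DNA is replicated. The mRNAs of these replication-dependent genes end in a short hairpin, the stem-loop, in place of a poly(A) tail, and are degraded when replication ends. A few cluster genes, Hist1h2bc among them, are also known to make polyadenylated mRNA that lasts in nondividing cells. Thymocytes divide in a burst at the double-negative to double-positive transition, rest as double-positive (DP) cells that carry both CD4 and CD8, and divide little while they are selected into CD4 or CD8 single-positive (SP) cells. The libraries were primed on poly(A) and counted at the 3′ end, so an mRNA without a tail is captured poorly and the counts are not a census of histone mRNA.

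The stem-loops show which RNA ends the members can form. In GENCODE annotation of GRCm38, 65 members had a coding transcript, and 58 of these had a 16-base stem-loop, searched on the coding strand within 300 bases after the stop codon as GG, 2 free bases, CTTTT, 1 free base, AG, 2 free bases and CC. It began a median of 31 bases after the stop codon (21 to 58). The commonest exact form, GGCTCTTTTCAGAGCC, occurred in 36 members, followed by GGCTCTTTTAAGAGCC in 9 and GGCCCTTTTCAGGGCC in 8. The sequences below are those of members on which the results turn, on the coding strand, with the 16-base stem-loop in capitals and 5 flanking bases on each side.
Hist1h2ap, chr13:21833024-21833049, minus strand: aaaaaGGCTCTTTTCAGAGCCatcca
Hist1h1b, chr13:21779832-21779857, minus strand: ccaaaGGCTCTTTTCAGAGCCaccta
Hist1h3c, chr13:23745042-23745067, minus strand: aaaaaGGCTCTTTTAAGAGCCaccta
Hist1h4d, chr13:23581945-23581970, plus strand: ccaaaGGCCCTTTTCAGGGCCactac
Hist1h2bc, chr13:23684642-23684667, plus strand: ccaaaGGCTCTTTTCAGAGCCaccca
Hist3h2a, chr11:58955167-58955192, plus strand: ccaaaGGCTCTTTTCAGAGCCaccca
Hist3h2ba, chr11:58949344-58949369, plus strand: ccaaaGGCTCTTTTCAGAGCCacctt
Hist4h4, chr6:136803993-136804018, minus strand: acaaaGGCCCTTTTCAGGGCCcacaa

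The stem-loop was common to members that differed below. Hist1h2bc and Hist3h2a had the same 26 bases as printed, and their 16-base loop was that of Hist1h2ap. The annotated ends did vary. For 22 of the 58 members the transcript was annotated at least 100 bases past the loop, and 13 of these 22 had the polyadenylation signal AATAAA in the added stretch. The annotation of Hist1h2ap ran 3 bases past its loop and that of Hist1h1b stopped before it. The annotation ran 1643 bases past the loop for Hist3h2a, 169 for Hist3h2ba, 840 for Hist1h1c and 2445 for Hist4h4. For Hist1h2bc the annotated transcript of 1156 bases has 2 exons, and the loop lies in the intron between them, with 733 bases of the second exon past it. No stem-loop was found for Hist2h2be, whose transcript was annotated to 2192 bases after the stop codon. The 67 annotated members lay in few places, with 53 on chromosome 13, 11 on chromosome 3, 2 on chromosome 11 and 1 on chromosome 6.

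Near-identical members can trade reads. Of the 67 members, 27 shared at least 50% of their 90-base stretches with another gene, and 6 shared none. For Hist1h2ap the shared portion was 92.4%, mostly with Hist1h2ao, and 100% over its last 300 bases, the end that the libraries count. All of the last 300 bases of Hist1h1e overlapped the transcript of Hist1h2be. The assignment of reads between such genes is therefore uncertain, and the UMIs given for Hist1h2ap may include those of near-identical genes. Hist1h1b and Hist2h2be shared no stretch with another gene.

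The lanes held 9893333 to 43303999 RNA unique molecular identifiers (UMIs), with 1519 to 7259 per median cell, and 69291 of 85389 barcodes were kept. Across lanes, 981 of 84372 distinct barcodes (1.16%) recurred. Kept cells with at least 1000 UMIs were thinned to that number and scored on 36 S phase genes and 36 G2/M genes, which include no histone, chaperone or histone mRNA factor. The 1287 shallower kept cells entered no class. Before doublets were removed, 361 and 401 of such cells were in the 2 lanes of wild-type replicate 5. S-high cells had at least 4 UMIs of the S list and more of it than of the G2M list (4846 cells). G2M-high cells had at least 4 of the G2M list and at least as many as of the S list (5031 cells), and non-cycling cells had at most 1 of each (45104 cells). These classes are ranges of a score, with 1624 S-high and 664 G2M-high cells within 1 UMI of the cut. Clusters were named from fixed markers after clustering without the members, and the names may differ from those of the study. Unnamed clusters held 20673 kept cells, which entered no comparison of stages. Raw UMIs were summed per mouse and class and are given as UMIs per 1000000 RNA UMIs of the sum (CPM), and a member was called higher or lower at an adjusted p below 0.05 by edgeR's quasi-likelihood test over all genes, with the mouse as a block. Such a sum is a share of RNA. Within a mouse S-high cells held a median 2.62 times and G2M-high cells 3.31 times the UMIs of non-cycling cells.

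Kept cells held 1292353 member UMIs, of which 64.1% were of H2A genes, 18.9% of H1, 8.13% of H4, 5.66% of H2B and 3.19% of H3. Hist1h2ap, an H2A gene, supplied 52.9% and Hist1h1b, a linker histone H1 gene, 11.1%. These are shares of captured UMIs and not of mRNA, since capture depends on the end of each RNA. The Hist1 cluster gave 94.5% of the UMIs. At the other end, 3 members (Hist1h2bq, Hist1h2br and the germ cell gene Hist1h2ba) had no UMI, and 20 had under 1000, the 3 among them.

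Histone cluster RNA separated cycling from non-cycling thymocytes in every mouse. The sum of the 69 members ranged from 183 to 1055 CPM in non-cycling cells, with a median of 330 over 17 mice. In S-high cells it ranged from 2676 to 11725 CPM (median 4607). G2M-high cells held more still, 6416 to 32222 CPM with a median of 11526. The ranges of S-high and G2M-high cells lay above the whole non-cycling range. Within a mouse the non-cycling level was a median 6.85% of the S-high level and 2.85% of the G2M-high level.

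**Figure D1:**
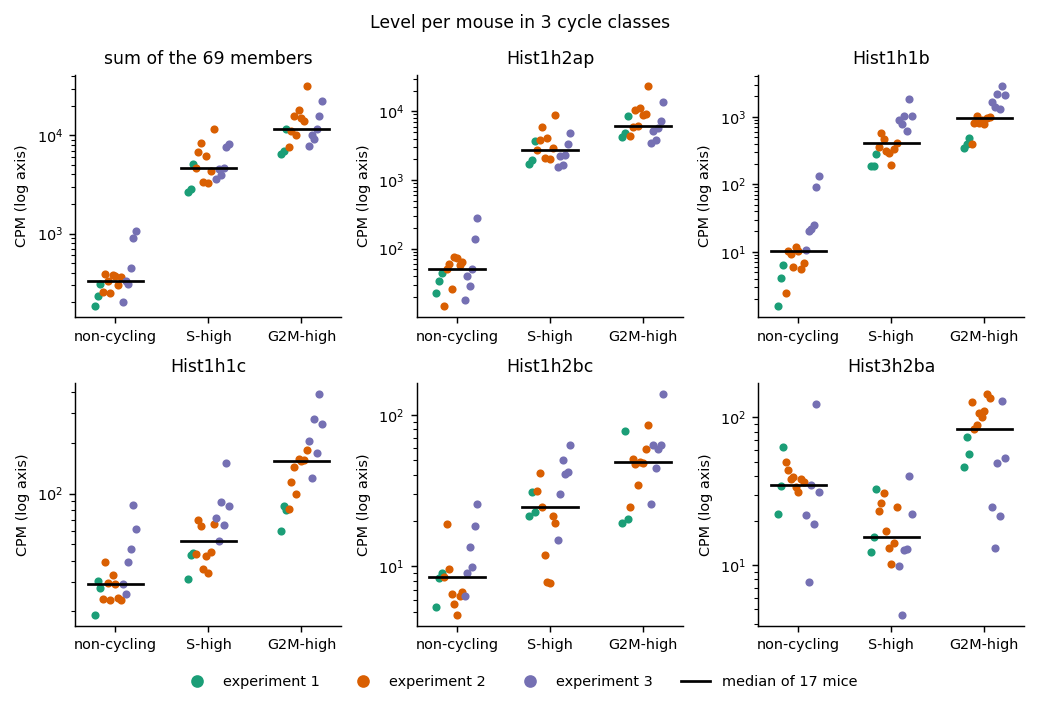
Levels per mouse (CPM, log axis) in non-cycling, S-high and G2M-high cells for the sum of the 69 members and for Hist1h2ap, Hist1h1b, Hist1h1c, Hist1h2bc and Hist3h2ba. Each point is 1 of 17 mice coloured by experiment, and the bar is the median. Hist1h2ap moved from a median of 50.1 to 2772 CPM between non-cycling and S-high cells, while Hist3h2ba moved from 35.1 to 15.5 CPM.

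By genotype, the summed level in non-cycling cells was 183 and 254 CPM in AND mice, 229 and 389 in F5, 330 and 249 in MHCI-/-, 382 and 366 in MHCII-/-, 203 and 332 in OT-I and 307 and 441 in OT-II. In wild-type replicates 1 to 5 it was 309, 298, 358, 902 and 1055 CPM. The 2 high values were those of the unsorted wild-type mice. In these, 65.2% and 50.3% of non-cycling cells lay in the quiescent DP-like clusters, against 0.0511% to 11.5% in the other mice. An unnamed cluster of 3200 cells, nearest to the quiescent DP markers, was not counted there, and 92.7% of it came from OT-II replicate 1. That mouse stood at 307 CPM, and the part of the DP share in the summed level was not tested. The lowest shares of quiescent DP-like cells were 0.0511% and 0.137% in AND and 0.152% and 0.270% in F5 mice. These mice are Rag1-/-, and Rag1 is a marker of the quiescent DP-like clusters. The part of that genotype in the cluster assignment was not tested. In S-high cells the sum was 2676 and 4689 CPM in AND, 2837 and 6722 in F5, 8370 and 3372 in MHCI-/-, 6165 and 3240 in MHCII-/-, 3576 and 4565 in OT-I, and 3980 and 4607 in OT-II mice. Wild-type replicates held 5063, 4355, 11725, 7569 and 8124 CPM in S-high cells. The range of every genotype in S-high cells overlapped that of every other genotype.

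In S-high against non-cycling cells, 48 members passed the filter on low counts, 45 were higher and 3 lower, beside 36.3% higher and 42.8% lower of all 10445 genes tested. A member that passed the filter only through the class where it is high had to differ, so these counts describe the 48 alone, and 21 members did not pass. The median log2 fold change of the 48 was 3.40, against -0.08 over all genes. For 24 of them the ranges over mice did not overlap. The share of all genes with separate ranges is not given, so this count is not read as particular to the members. By protein, all 5 tested H1 genes were higher (median 2.53), 11 of 12 H2A genes were higher and 1 lower (4.64), 13 of 15 H2B genes were higher and 2 lower (3.38), and all 7 H3 (3.56) and 9 H4 genes (2.59) were higher.

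The H2A genes held some of the largest differences. Hist1h2ap lay at 1571 to 8942 CPM in S-high cells (median 2772) and at 14.7 to 280 CPM in non-cycling cells (median 50.1). Its log2 fold change was 6.04 ± 0.21 (SE, n = 17 mice; edgeR adjusted p = 8.3e-17), a 65.8-fold difference. The lowest S-high mouse lay above the highest non-cycling mouse. Within experiments 1, 2 and 3 the log2 fold change was 6.25, 6.34 and 5.53. Hist1h2af (6.12 ± 0.34, with a non-cycling median of 0.0594 CPM), Hist1h2ab (5.55 ± 0.25) and Hist1h2ae (4.90 ± 0.17) rose with it.

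The linker genes did not move alike. Hist1h1b rose from 1.58 to 134 CPM (median 10.3) to 184 to 1823 CPM (median 406), a log2 fold change of 5.43 ± 0.23. Hist1h1c, the linker gene on the list of members kept in nondividing cells, lay at 19.1 to 85.8 CPM in non-cycling cells (median 28.9) and at 31.0 to 153 CPM in S-high cells (median 52.5), a log2 fold change of 0.93 ± 0.08 (edgeR adjusted p = 2.6e-10). Its ranges overlapped, although it was higher in S-high cells in 17 of 17 mice. Hist1h1a (4.35 ± 0.17), Hist1h1e (2.53 ± 0.10) and Hist1h1d (2.41 ± 0.15), which encode other H1 subtypes, lay between these genes. Hist1h1c kept a median 56.3% of its S-high level in non-cycling cells, against 17.4% for Hist1h1e and 2.12% for Hist1h1b.

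Among H3 and H4 genes, Hist1h3b had a fitted log2 fold change of 6.24 ± 0.28 and Hist1h3c of 5.39 ± 0.25. Hist1h3b was at or near 0 in non-cycling cells (0 to 4.72 CPM, median 0.119), against 4.21 to 61.5 CPM in S-high cells, so that the size of its change is uncertain. Hist1h3c ranged from 0.0638 to 7.64 CPM in non-cycling cells and from 8.37 to 79.2 CPM in S-high cells. The H4 genes moved less, with Hist1h4d at 2.87 ± 0.09 and Hist4h4, which lies alone on chromosome 6, at 0.48 ± 0.16 (edgeR adjusted p = 8.1e-03). Hist4h4 was higher in S-high cells in 11 of 17 mice, and its log2 fold change was -0.16, 0.18 and 1.02 within experiments 1, 2 and 3, so the pooled call did not hold within each experiment.

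**Figure D2:**
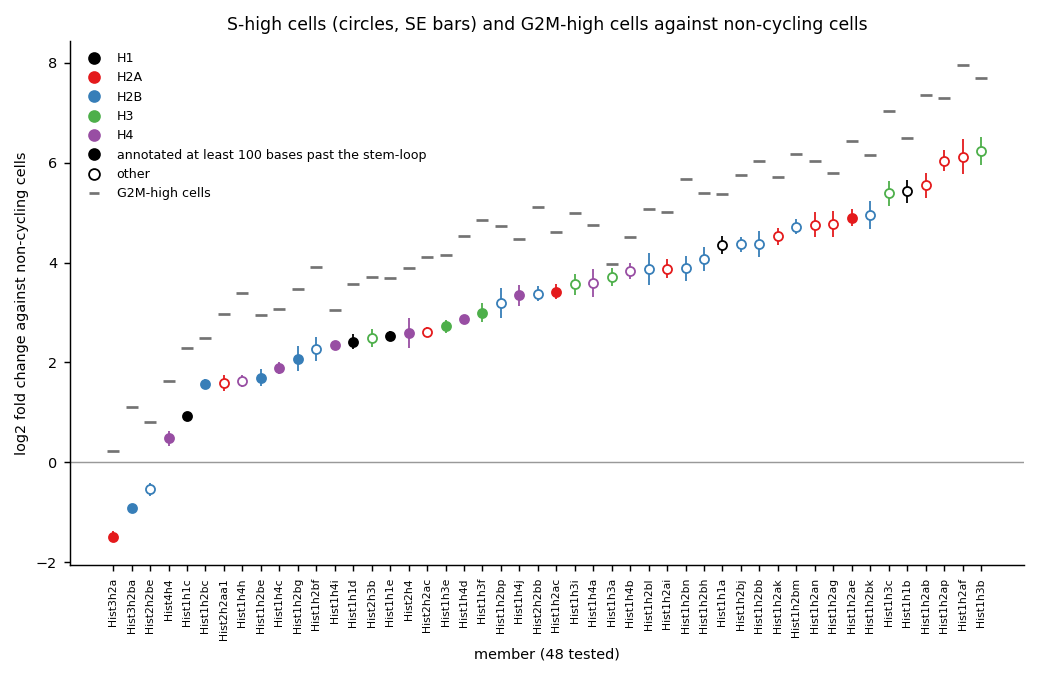
Log2 fold change of the 48 tested members in S-high against non-cycling cells (circles, with standard error bars), coloured by protein. Filled circles mark members annotated at least 100 bases past the stem-loop, and grey dashes give G2M-high against non-cycling cells. The circles run from -1.48 for Hist3h2a to 6.24 for Hist1h3b, and each dash lies above the circle of its member.

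Against this direction, 3 members fell in S-high cells: Hist3h2a, Hist3h2ba and Hist2h2be. Hist3h2a, an H2A gene, lay at 8.98 to 53.8 CPM in non-cycling cells (median 25.5) and at 1.15 to 15 CPM in S-high cells (median 9.85). It was lower in S-high cells in 17 of 17 mice, with a log2 fold change of -1.48 ± 0.10 (edgeR adjusted p = 1.2e-11), and -1.64, -1.40 and -1.48 within the 3 experiments. Hist3h2ba, the H2B gene beside it on chromosome 11, lay at 7.65 to 123 CPM in non-cycling and 4.60 to 40.1 CPM in S-high cells, and was also lower in 17 of 17 mice (-0.92 ± 0.09, edgeR adjusted p = 6.3e-09). Hist2h2be, an H2B gene of chromosome 3, was lower in 15 of 17 mice (medians 5.82 and 3.07 CPM; -0.54 ± 0.12, edgeR adjusted p = 4.4e-04). Within experiment 2 alone its log2 fold change was -0.42 (edgeR adjusted p = 0.11). Since S-high cells held 2.62 times the UMIs, a lower share is not by itself fewer molecules per cell.

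These 3 belong to a list of 6 members described as polyadenylated or kept in nondividing cells, which was drawn up with earlier results of these data known. The other members of the list, Hist1h2bc, Hist1h2be and Hist1h1c, rose. Hist1h2bc, an H2B gene, lay at 4.79 to 25.6 CPM in non-cycling cells (median 8.50) and at 7.70 to 63.5 CPM in S-high cells (median 24.6), higher in 17 of 17 mice. Its log2 fold change was 1.56 ± 0.10 (edgeR adjusted p = 4.0e-12), or 2.95-fold, and 1.83, 1.31 and 1.71 within the experiments. It kept a median 39.2% of its S-high level in non-cycling cells, against 1.70% for Hist1h2ap and 3.18% for Hist1h2ae. Hist4h4 kept 80.6%, and the non-cycling level was above the S-high level for Hist2h2be (189%), Hist3h2ba (217%) and Hist3h2a (301%).

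As a description, the annotated RNA end went with the size of the difference among the members that passed the filter. The ends are those of GENCODE, in which 67 of the 69 members had a gene. The authors counted UMIs on the genes of their mm10 reference, whose ends may differ. A member that passed only through its S-high level had to differ, and the part of the filter in the medians was not tested. Members annotated at least 100 bases past the stem-loop had a median log2 fold change of 2.38 (18 tested, 16 higher and 2 lower), those annotated to end nearer the loop had 4.12 (24 tested, all higher), and those searched with no loop found had 3.39 (4 tested, 3 higher and 1 lower). The other 2 tested members had no annotated coding transcript to search. The groups overlapped widely, since Hist1h2ae, annotated 151 bases past its loop, rose by 4.90. How far poly(A) capture differs between these groups, and its part in the difference, was not tested.

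The make-up of member UMIs changed with it. H2A genes held a median 31.6% of member UMIs per mouse in non-cycling cells (24.5% to 41.3%) and 73.1% in S-high cells (49.5% to 84.4%), ranges that did not overlap. The share of H2B genes moved the other way, from 21.4% (9.73% to 31.6%) to 3.86% (2.44% to 6.02%). These directions held in 17 of 17 mice. A lower share of member UMIs is not a lower level, since most H2B genes tested were higher in S-high cells. H4 genes went from 17.3% to 5.50% at the median, also lower in 17 of 17 mice, with overlapping ranges. H1 genes stood at medians of 23.5% and 13.7%, and were lower in 3 of 3 mice of experiment 1, 8 of 8 of experiment 2 and 3 of 6 of experiment 3. H3 genes, at 4.02% and 3.14%, were lower in 12 of 17 mice. In G2M-high cells the median shares were 74.0% for H2A, 11.9% for H1, 6.28% for H4, 4.75% for H2B and 3.18% for H3.

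G2M-high cells were compared with the same non-cycling cells. Of 56 members tested, 55 were higher and none lower, beside 37.7% higher and 42.5% lower of 10395 genes. These counts again describe the members that passed the filter, 8 of them not tested in S-high cells, and those that passed through their G2M-high level had to differ. The median log2 fold change was 4.74, against -0.05 over all genes, and 40 members had ranges that did not overlap. For these 40, too, the share of all genes is not given, and the count is not read as particular to the members. The largest fitted values were those of Hist1h2af (7.96 ± 0.27), Hist1h3b (7.69 ± 0.23), Hist1h2ab (7.36 ± 0.24), Hist1h2ap (7.29 ± 0.19, or 157-fold), Hist1h3c (7.04 ± 0.22), Hist1h3g (6.82 ± 0.22), Hist1h1b (6.49 ± 0.23) and Hist1h2ae (6.43 ± 0.17). Of these, Hist1h2af, Hist1h3b and Hist1h3g were at or near 0 in non-cycling cells, and the sizes of their changes are uncertain. Hist1h2bc rose from a median of 8.50 to 48.5 CPM (19.2 to 137; 2.48 ± 0.16), and Hist1h1c from 28.9 to 155 CPM (59.96 to 390; 2.30 ± 0.11). The members that fell in S-high cells did not fall here: Hist3h2ba was higher by 1.12 ± 0.14 and Hist2h2be by 0.80 ± 0.16, although within experiments 1, 2 and 3 the value of Hist2h2be was 0.55 (edgeR adjusted p = 0.24), 1.37 (9.8e-07) and 0.17 (0.37). Hist3h2a was not called (0.22 ± 0.12, edgeR adjusted p = 0.097), and its log2 fold change was 0.15 (adjusted p = 0.64), 0.61 (1.5e-05) and -0.41 (0.0092) within experiments 1, 2 and 3, a difference between experiments that was not tested.

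S-high and G2M-high cells were also compared directly. All 53 members tested were lower in S-high cells, beside 28.9% lower of 9079 genes (30.4% were higher), with a median log2 fold change of -1.27 against 0.00 over all genes. Here too, a member that passed the filter only through its G2M-high level had to differ. Ranges over mice overlapped for every member, so the call rests on differences within mice. Hist1h2ap was lower in S-high cells in 17 of 17 mice (-1.22 ± 0.08, edgeR adjusted p = 4.2e-12), and the sum of the members in G2M-high cells was a median 2.40 times that in S-high cells (1.63 to 4.62). The largest differences were those of Hist3h2ba (-1.90 ± 0.15), Hist1h3f (-1.80 ± 0.12), Hist1h2af (-1.79 ± 0.11), Hist1h2bn (-1.76 ± 0.15) and Hist1h4h (-1.73 ± 0.09). Hist1h2bc differed by -0.83 ± 0.17, with a difference within experiment 1 alone of -0.32 that was not called (edgeR adjusted p = 0.48).

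The classes are not clean phases. G2M-high cells held a median of 5361 CPM of the S list, against 8064 CPM in S-high cells, and 4151 cells had at least 4 UMIs of both lists. The order by list was therefore read again in cells high in 1 list and low in the other, a split chosen after the data were seen. The sum of members was 229 to 2576 CPM (median 890, 16 mice) in cells with the S list alone and 2883 to 20851 CPM (median 7364, 12 mice) in cells with the G2M list alone. It was 6322 to 33392 CPM (median 11985, 17 mice) in cells high in both. In the test of the first against the second, 24 of 25 members were lower, beside 26.9% lower and 25.5% higher of 7016 genes, with Hist1h2ap at -2.76 and Hist1h2bc at -2.05. The 25 are the members that passed the filter, with the same limit.

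Hist1h3a was the exception, and it was singled out after its values were seen. Its median was 33.6 CPM in S-high cells (15.5 to 61.1), 42.3 CPM in G2M-high cells (22.2 to 79.0) and 2.67 CPM in non-cycling cells (1.07 to 8.54). The S-high to G2M-high difference of -0.27 ± 0.10 (edgeR adjusted p = 0.031) was the smallest of the 53, and it was -0.78, 0.08 and -0.53 within the 3 experiments. In cells high in only 1 of the lists Hist1h3a was higher with the S list, by 0.39 (adjusted p = 0.044).

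**Figure D3:**
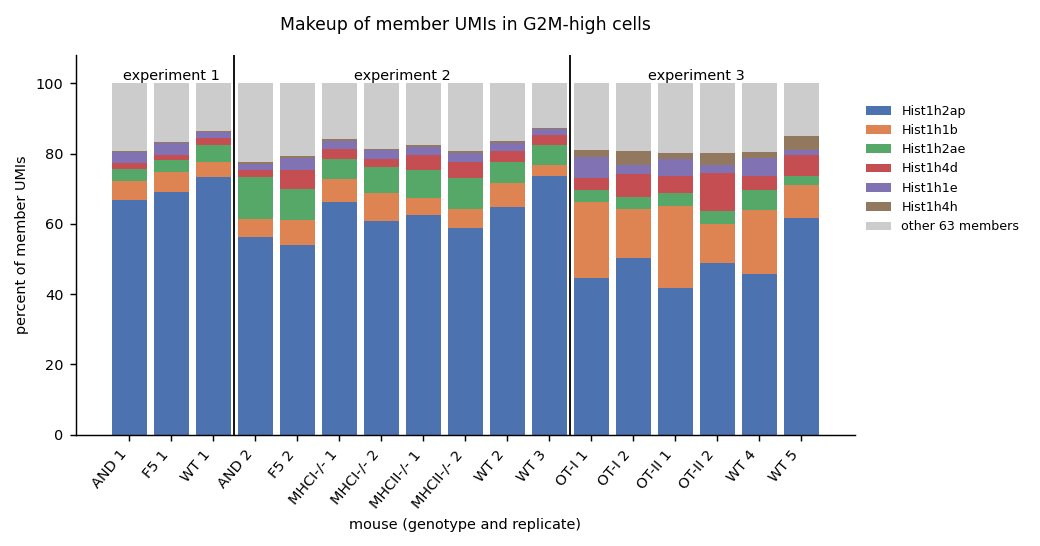
Share of all member UMIs (percent) in G2M-high cells of each of the 17 mice, stacked for Hist1h2ap, Hist1h1b, Hist1h2ae, Hist1h4d, Hist1h1e, Hist1h4h and the other 63 members, with mice grouped by experiment. Hist1h1b holds a larger band in every mouse of experiment 3 (9.27% to 23.3%) than in any mouse of experiments 1 and 2 (3.13% to 7.97%).

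Which members supplied the UMIs differed between experiments, as the stacked shares show. In S-high cells Hist1h2ap held a median 69.4% of member UMIs in the 3 mice of experiment 1 (64.4% to 72.4%), 63.9% in the 8 mice of experiment 2 (57.2% to 76.3%) and 46.4% in the 6 mice of experiment 3 (42.1% to 60.3%). Hist1h1b held 6.49%, 6.76% and 20.5%, and its values in experiment 3 (12.7% to 25.4%) did not overlap the others (3.46% to 9.17%). Hist1h4h, an H4 gene, held 0.322%, 0.404% and 1.60%, with 1.05% to 2.86% in experiment 3 and at most 0.569% elsewhere. Hist1h4d held 1.44%, 2.44% and 4.15%, with overlapping ranges. All mice of experiment 3 were unsorted OT-I, OT-II or wild-type mice, and the wild-type mice of experiments 1 and 2 were sorted. Experiment therefore cannot be told apart from genotype for OT-I and OT-II mice, or from sort for wild-type mice. The AND and F5 mice of experiments 1 and 2 were unsorted too. In their S-high cells H1 genes held 12.6% and 12.1% (AND) and 13.7% and 15.4% (F5) of member UMIs. The part of sort was not tested. Experiment 3 was itself not uniform. H1 genes held 35.7% of member UMIs in S-high cells of OT-I replicate 1, 36.0% in OT-II replicate 1 and 35.0% in wild-type replicate 4, against 22.0% in OT-I replicate 2, 19.6% in OT-II replicate 2 and 17.1% in wild-type replicate 5. H4 genes in G2M-high cells held 7.71%, 8.14% and 6.94% in the first 3 of these mice and 13.1%, 17.1% and 11.3% in the others. Within each genotype the first 3 mice had the deeper libraries. The median cell had 7259 UMIs in OT-I replicate 1 against 3192.5 in replicate 2, and 4303 in OT-II replicate 1 against 2150 in replicate 2. The lanes of wild-type replicate 4 had 3483 and 2880, against 1579 and 1519 in replicate 5. Across genotypes the depths overlapped, since 2880 lies below the 3192.5 of OT-I replicate 2. The part of depth in these shares was not tested, and the labels name no difference in handling. Hist1h4h in G2M-high cells was 29.6 to 262 CPM in wild-type replicates 1 to 4 and 862 CPM in replicate 5.

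The genes that serve histone synthesis were counted from fixed lists in the same comparisons. In S-high against non-cycling cells, 36.3% of all genes were higher and 42.8% lower. Beside these shares, 15 of 16 histone chaperones and assembly factors tested rose, led by Chaf1a (5.30) and Asf1b (4.42), which deposit H3 and H4 on new DNA. Of 16 factors tested for histone mRNA synthesis and processing, 13 rose and 1 fell. Slbp, which binds the stem-loop, rose by 3.12, and Pou2f1, whose protein Oct-1 binds the octamer, fell by 0.22 on the log2 scale. Of 10 replication-independent variants, 8 rose, H2afz (H2A.Z) by 2.71, and 1 fell, H1f0, by 0.29. In G2M-high cells, beside 37.7% higher and 42.5% lower of all genes, all 10 variants rose, H2afx by 4.50 and the centromeric H3 gene Cenpa by 4.22. There 13 of 16 mRNA factors and 14 of 16 chaperones rose too, while Lsm10 of the U7 particle fell by 0.46 and Daxx by 0.24.

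Between the cycling classes the same lists were counted beside 30.4% higher and 28.9% lower of all genes. Of the 16 chaperones, 10 were higher in S-high cells, among them Chaf1b (1.35), Chaf1a (0.75), Hat1 (0.69) and Nasp (0.47), and 4 were lower, including Hjurp (-1.01), the chaperone of Cenpa, and Anp32e (-0.96), that of H2A.Z. The other 2 lower chaperones, Asf1b (-0.27) and Rbbp4 (-0.17), turned direction in cells high in only 1 of the cycle lists, at 0.11 (edgeR adjusted p = 0.60) and 0.35 (5.4e-05). Of 16 mRNA factors 6 were higher, including Casp8ap2 (0.72), Slbp (0.58), Lsm10 (0.45) and Npat (0.39), and 3 lower. The variants were lower in 8 of 10, including Cenpa (-2.69) and H2afx (-2.11), with H2afj higher by 0.23. The member medians stood at -1.27 in that comparison, that of variants at -0.80, that of mRNA factors at 0.06 and that of chaperones at 0.17. The lists were not tested against the members.

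Among non-cycling cells the members followed the stage of development. Stages were read from clusters as quiescent DP-like, signaled DP-like (DP cells with markers of receptor signalling) and mature. The mature class joins the mature SP-like, CD4 SP-like and CD8 SP-like clusters, and it may hold cells that are not fully mature. The CD4 SP-like cluster was led by Itm2a, Id2, Chl1 and Cd40lg. At the alternative clustering resolution of 0.6, a cluster with these among its leading genes was named signaled DP-like. The sum of members was 435 to 1784 CPM in quiescent DP-like cells (median 1333, 13 mice), 225 to 573 CPM in signaled DP-like cells (median 373, 12 mice) and 167 to 299 CPM in mature cells (median 213, 12 mice). The ranges of quiescent DP-like and mature cells did not overlap. Non-cycling quiescent DP-like cells were shallower, with 1518 to 3286 UMIs per cell, against 3909 to 7408 in mature cells. The cycle lists also differed among these non-cycling cells. The S list stood at a median of 711 CPM in quiescent DP-like, 589 in signaled DP-like and 535 in mature cells, and the G2M list at 242, 196 and 176 CPM. Their part in the member differences was not tested, nor was that of free RNA from cycling cells.

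**Figure D4:**
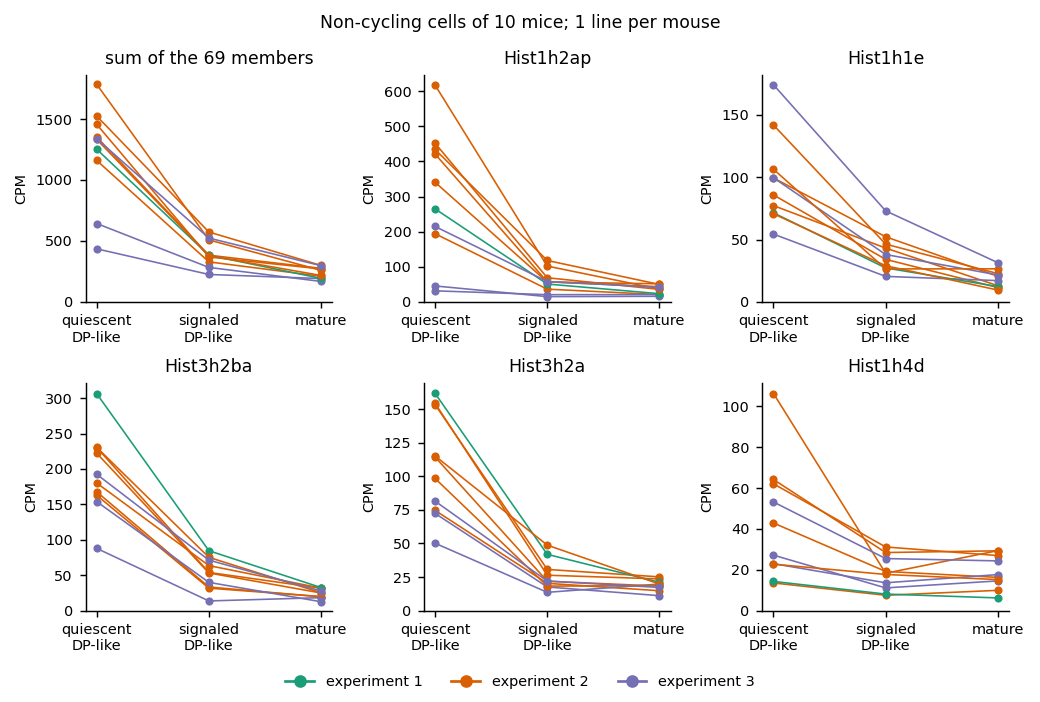
Levels (CPM) in non-cycling quiescent DP-like, signaled DP-like and mature cells of the 10 mice with all 3 stages, 1 line per mouse, for the sum of members and for Hist1h2ap, Hist1h1e, Hist3h2ba, Hist3h2a and Hist1h4d. Hist3h2ba goes from a median of 186 CPM in quiescent DP-like to 53.5 in signaled DP-like and 24.99 CPM in mature cells.

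In mature against quiescent DP-like cells of the same 10 mice, 21 members were tested, 19 were lower and none higher, beside 30.9% lower and 32.8% higher of 9641 genes. A member that passed the filter only through the stage where it is high had to differ, so these counts describe the 21 alone. The median was -1.55, against -0.00 over all genes. Scaling by RNA totals without TMM factors moved the all-gene median to -0.32 and the share of all calls that were higher from 51.5% to 28.6%, and 20 members were lower. Hist1h1b (-2.86 ± 0.15) and Hist1h2ap (-2.68 ± 0.13) fell most, Hist1h2ap from a median of 303 CPM (31.4 to 618) to 35.9 CPM (15.7 to 51.4). It was lower in mature cells in 10 of 10 mice, and the ranges overlapped through OT-II replicate 1 at 31.4 and OT-I replicate 1 at 45.3 CPM in DP-like cells.

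The genes that were lower in S-high cells fell as well. Hist3h2ba lay at 87.8 to 306 CPM in quiescent DP-like (median 186) and at 12.5 to 32.5 CPM in mature cells (median 24.99), ranges that did not overlap in these 10 mice (-2.65 ± 0.08, edgeR adjusted p = 1.0e-28). Hist3h2a went from 50.2 to 162 CPM (median 106) to 11.1 to 25.1 CPM (median 19.2), also without overlap (-2.13 ± 0.10). The 3 mice with quiescent DP-like cells but too few cells in the clusters named as mature had lower levels of both genes in quiescent DP-like cells. An unnamed cluster of 5474 cells, nearest to the mature SP markers and to 40.1% from wild-type replicate 5, was not counted as mature. Hist3h2ba was at 0 CPM in OT-I replicate 2 (32 cells), 42.5 in OT-II replicate 2 and 59.3 CPM in wild-type replicate 5, and Hist3h2a at 0, 23.9 and 36.2 CPM. Both genes had their highest median of the 3 non-cycling stages in quiescent DP-like cells. Hist1h1e (-2.12 ± 0.10; 54.4 to 174 against 9.45 to 31.4 CPM) and Hist1h1d (-2.37 ± 0.15) had separate ranges as well. Hist1h2bc fell from a median of 22.5 CPM (6.27 to 27.8) to 5.05 CPM (1.97 to 10.3), in 9 of 10 mice (-1.81 ± 0.24), and Hist1h1c (-1.55 ± 0.12) and Hist2h2be (-1.44 ± 0.24) fell with it. All 6 members of the list kept in nondividing cells were lower in mature cells, at a median of -1.89. Hist2h2ac (-0.28, edgeR adjusted p = 0.24) and Hist4h4 (-0.37, adjusted p = 0.40) were not called.

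The decrease was already present in signaled DP-like cells, which were compared with the same quiescent DP-like cells. Of 10 members tested, all 10 were lower, beside 28.4% lower and 28.0% higher of 7000 genes. Members that passed the filter only through their quiescent DP-like level had to differ, so this count describes the 10 alone. Hist1h2ap fell by 2.37 ± 0.09 on the log2 scale, Hist3h2a by 2.05 ± 0.11, Hist3h2ba by 1.85 ± 0.09 and Hist1h1b by 1.56 ± 0.14. In the same 10 mice Hist3h2ba ranged from 13.6 to 84.5 CPM in signaled and from 87.8 to 306 CPM in quiescent DP-like cells, and Hist3h2a from 13.6 to 48.8 against 50.2 to 162 CPM, ranges that the 3 mice without signaled DP-like or mature sums would make overlap. The value of 13.6 CPM was that of OT-II replicate 1 for both genes and rested on 2 UMIs. The smallest difference was that of Hist1h4h (-0.70 ± 0.19).

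The other lists had calls in both directions. In mature against quiescent DP-like cells, beside 32.8% higher and 30.9% lower of all genes, 9 of 15 chaperones tested were higher, Rbbp7 by 1.62, and 3 lower. Of the variants 2 were higher and 5 lower, with the linker variant H1fx at -3.29, and of the mRNA factors 3 were higher and 6 lower of 16. Medians were 0.33 for chaperones, -0.27 for variants and -0.19 for mRNA factors, and the lists were not tested against the members. In signaled DP-like cells, beside 28.0% higher and 28.4% lower, the chaperones were higher in 6 and lower in 1 of 14, the variants higher in 3 and lower in 2 of 9, and the mRNA factors higher in 5 and lower in 2 of 16.

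Across the named non-cycling clusters with at least 30 such cells in 4 or more mice, Hist1h2bc had its highest median in myeloid-like cells, which join a cluster led by the macrophage complement genes C1qb, C1qc and C1qa and a cluster led by Hbb-bs, Cd74 and Ccl5. There it was at 31.6 CPM in AND replicate 1, 21.4 in OT-I replicate 1, 34.4 in OT-II replicate 1 and 51.5 CPM in wild-type replicate 4, from 6 to 13 UMIs a mouse. Quiescent DP-like cells followed at a median of 21.3 CPM (0 to 38.0, 13 mice), a range that overlapped the myeloid-like values. DN-like cells, the stage before DP, held 57.5 and 10.1 CPM in OT-II replicates 1 and 2 and 8.40 and 19.1 CPM in wild-type replicates 4 and 5. The value of 57.5 CPM rested on 41 UMIs and stood far above the other 3, each from 3 to 6 UMIs.

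Lower in the order of medians came a cluster led by Maf, Blk and Sox13 (11.6 CPM, 5.10 to 15.8, 6 mice), which carried gamma-delta T cell markers. All 6 mice with enough of these cells were TCRtg, and 2 were Rag1-/- AND mice, which goes against a gamma-delta identity, so the cluster is called here by its leading genes. Interferon-like cells (9.28 CPM, 7 mice), Treg-like cells (8.87, 7 mice) and mature SP-like cells (8.21, 10 mice) were next, and their ranges over mice overlapped. NKT-like (4.72 CPM, 5 mice), CD4 SP-like (3.77, 12 mice), negative selection-like (3.64, 10 mice), signaled DP-like (2.81, 12 mice) and CD8 SP-like cells (2.46, 10 mice) were lowest, and these ranges overlapped as well. Hist1h1c was also high in these clusters, with 52.7, 42.8, 51.5 and 79.3 CPM in the same 4 mice of the myeloid-like cluster and a median of 85.7 CPM in quiescent DP-like cells, against medians of 13.0 to 40.5 CPM in the other named clusters. The sum of all members was not high in myeloid-like cells (228 to 555 CPM, median 267, 4 mice), and Hist1h2ap had a median of 23.9 CPM there. These clusters were compared by levels alone, with no test.

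S-high cells were divided by markers of early and of late stages to see whether the members also differed within this class. Early-marker S-high cells had more UMIs of 8 genes of early thymocytes (such as Ptcra and Rag1). Late-marker cells had more of 13 genes of selected cells (such as Ccr7 and Il7r). Rag1 is the gene disrupted in AND and F5 mice, and its part in this division was not tested. In late-marker against early-marker cells of 13 mice, 27 of 30 members tested were lower and none higher, beside 17.8% lower and 18.3% higher of 7138 genes. These counts describe the 30 that passed the filter, and a member that passed only through its early-marker level had to differ. The median was -0.98, against -0.01 over all genes. Hist3h2ba (-1.75 ± 0.35), Hist1h2ae (-1.45 ± 0.23), Hist1h1b (-1.37 ± 0.22), Hist1h2ab (-1.35 ± 0.25), Hist1h1a (-1.29 ± 0.22), Hist1h1d (-1.26 ± 0.21), Hist1h2bc (-1.25 ± 0.18) and Hist1h2an (-1.23 ± 0.26) differed most. Hist1h2ap stood at 1002 to 6696 CPM in late-marker (median 1465) and 1749 to 12979 CPM in early-marker cells (median 3888), lower in 12 of 13 mice (-1.09 ± 0.19). Hist1h3a was higher by 0.26 and not called (edgeR adjusted p = 0.21).

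The position in the cycle moved with this comparison. Late-marker cells held a median 2222 CPM of the G2M list and 6711 CPM of the S list, against 4635 and 9043 CPM in early-marker cells, and their part in the member differences was not tested. By experiment, 0 of 22 members were lower in experiment 1 alone, 18 of 34 in experiment 2 and 25 of 29 in experiment 3, and with a cut of 6 UMIs the count was 9. Experiment 1 held only AND replicate 1 and wild-type replicate 1 in this test, too few mice to read its 0 as no difference. Shares of all genes are not given for single experiments. Of the lists, 8 of 10 variants, 9 of 16 chaperones and 6 of 16 mRNA factors were lower as well, and H2afj was higher by 0.24. These stand beside 17.8% lower and 18.3% higher of all genes.

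CD4-fated and CD8-fated mice were compared within a cell class, with the family of models (MHC-deficient, OT or Rag1-/- TCRtg) as a covariate. In S-high cells of 12 mice none of 46 members tested was called by edgeR, beside 0.00% of 9031 genes in either direction. At an unadjusted p below 0.05 there was 1 member, Hist1h2bg (0.82 ± 0.38), and DESeq2 called 0, with 1 at that unadjusted level. Fold changes ran from -0.86 to 0.82 on the log2 scale. Hist1h2ap stood at 1675 to 5903 CPM in 6 CD4-fated and 1571 to 4029 CPM in 6 CD8-fated mice (0.05 ± 0.30), so that a difference was not detectable at this spread between mice. Part of that spread went with the replicate number, which for AND and F5 mice is also the experiment. With the number as a replicate block within each family, Hist1h2ap differed by 0.02 ± 0.12, none of the members was called by edgeR, and 5 had an unadjusted p below 0.05.

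In signaled DP-like cells of 8 mice none of 13 members was called by edgeR or DESeq2, beside 0.183% of 7649 genes higher and 0.196% lower. At an unadjusted p below 0.05 edgeR gave 2 members. Hist1h4d was at 4.86 and 4.14 CPM in AND, 19.2 and 7.50 in MHCI-/- and 13.6 CPM in the OT-II mouse, against 28.4 and 31.2 CPM in MHCII-/- and 11.1 CPM in the OT-I mouse (-1.21 ± 0.33, edgeR adjusted p = 0.11). Hist3h2ba was at 29.2 and 66.2 CPM in AND, 63.5 and 53.9 in MHCI-/- and 13.6 in OT-II, against 31.7 and 33.3 in MHCII-/- and 39.8 CPM in OT-I (0.66 ± 0.23, adjusted p = 0.34). Both genes had overlapping groups, and the AND and OT-II values of Hist1h4d and the OT-II value of Hist3h2ba rested on 1 or 2 UMIs a mouse. Within the MHC-deficient mice alone the values were -1.32 (adjusted p = 0.021) and 0.85 (0.014).

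Non-cycling mature cells differed between lineages for a few members. The test held 8 mice, with 5 CD4-fated (2 AND, 2 MHCI-/- and OT-II replicate 1) and 3 CD8-fated (2 MHCII-/- and OT-I replicate 1), and the F5 mice had 5 and 15 cells in the clusters named as mature. An unnamed cluster of 5290 cells, nearest to the CD8 SP markers and to 56.8% from F5 replicate 2, was not in this test. Under the family covariate the AND mice therefore inform the spread alone. Of 22 members tested 3 were higher in CD4-fated mice, Hist1h2bc, Hist3h2ba and Hist3h2a, beside 5.61% of 10271 genes, and 2 were lower, Hist1h1e and Hist1h2bj, beside 4.98%.

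Hist1h2bc was at 4.72 and 8.04 CPM in AND, 9.27 and 6.25 in MHCI-/- and 10.3 CPM in OT-II mature cells, and at 2.93 and 1.97 in MHCII-/- and 2.35 CPM in OT-I. Every CD4-fated mouse lay above every CD8-fated mouse. The log2 fold change was 1.85 ± 0.30 (edgeR adjusted p = 0.0031), from 27 to 58 UMIs per CD4-fated and 20 to 25 per CD8-fated mouse. Wild-type replicates 1 to 4 lay between and over these, at 8.27, 4.93, 5.18 and 4.19 CPM. The call held with each of the 8 mice left out in turn (adjusted p from 0.0025 to 0.024).

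Hist3h2ba was at 24.5 and 32.7 CPM in AND, 31.6 and 31.6 in MHCI-/- and 18.2 in OT-II, against 19.8 and 19.4 in MHCII-/- and 12.5 CPM in OT-I, with overlap through the OT-II mouse (0.68 ± 0.14, edgeR adjusted p = 0.011). Hist3h2a was at 24.1, 30.8, 23.6, 25.1 and 19.8 CPM in the CD4-fated mice in the same order and at 14.8, 18.2 and 11.1 CPM in the CD8-fated mice, without overlap (0.65 ± 0.15, adjusted p = 0.018). Hist1h1e went the other way, at 12.8, 9.09, 12.9, 11.4 and 17.03 CPM against 22.7, 20.5 and 21.6 CPM, also without overlap (-0.66 ± 0.15, adjusted p = 0.018). Wild-type mice, not in this test, spread widely for Hist1h1e. In their mature SP-like cells alone replicates 1 to 4 were at 13.2, 7.43, 27.2 and 31.5 CPM, a range that covered both groups. Hist1h2bj rested on 2 to 11 UMIs per CD4-fated and 15 to 41 per CD8-fated mouse (-1.61 ± 0.44, adjusted p = 0.040), and was not called with the replicate block (adjusted p = 0.059). Each of these 4 calls was lost without MHCI-/- replicate 1, without MHCI-/- replicate 2 or without MHCII-/- replicate 1, and all but that of Hist3h2a without MHCII-/- replicate 2.

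**Figure D5:**
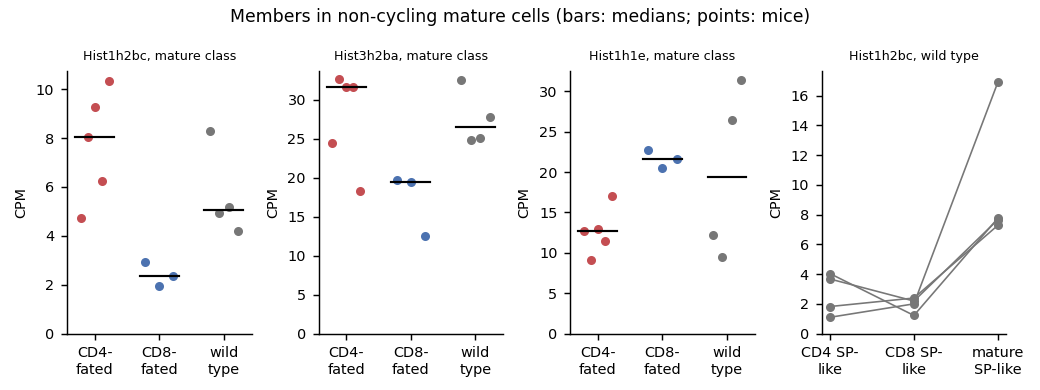
Levels (CPM) of Hist1h2bc, Hist3h2ba and Hist1h1e in non-cycling mature cells of CD4-fated, CD8-fated and wild-type mice, 1 point per mouse, and of Hist1h2bc in the mature SP-like, CD4 SP-like and CD8 SP-like clusters of the 4 wild-type mice. The 5 CD4-fated mice lie at 4.72 to 10.3 CPM of Hist1h2bc and the 3 CD8-fated mice at 1.97 to 2.93 CPM.

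The make-up of the mature class differed between the lineages. CD4-fated mature cells were a median 66.4% mature SP-like, 30.4% CD4 SP-like and 3.95% CD8 SP-like, and CD8-fated cells 1.06%, 9.56% and 89.4%. Within single clusters, a comparison added after the data were seen, Hist1h2bc did not pass the filter in CD4 SP-like cells, where it was at 5.39 and 3.87 CPM in AND, 5.49 and 1.66 in MHCI-/- and 7.05 in OT-II, against 4.71 and 2.23 in MHCII-/- and 0.917 CPM in OT-I, from 1 to 9 UMIs a mouse and with overlap. In CD8 SP-like cells it differed by 1.12 (edgeR adjusted p = 0.53), from 1 or 2 UMIs in each CD4-fated mouse. Hist3h2ba differed by -0.14 in CD4 SP-like and by 1.83 in CD8 SP-like cells (edgeR adjusted p = 2.4e-04). In the CD8 SP-like cells it was at 85.6 and 97.8 CPM in MHCI-/- and 27.4 CPM in OT-II, against 18.8, 18.6 and 11.4 CPM in MHCII-/- and OT-I. The CD4-fated values rested on 15, 25 and 12 UMIs from 65, 64 and 87 cells. Wild-type CD8 SP-like cells stood at 17.6 to 31.1 CPM. In the mature SP-like cluster the CD8-fated mice were represented by OT-I replicate 1 alone, with 70 cells and 1 UMI of Hist1h2bc, since the MHCII-/- mice had 10 and 19 such cells, and no difference is read from it here. Hist1h1e was at 7.05 to 15.3 CPM in CD4-fated and 18.3 to 34.6 CPM in CD8-fated CD4 SP-like cells without overlap (-0.999 ± 0.28, edgeR adjusted p = 0.047), from 2 to 46 UMIs a mouse, and its difference in CD8 SP-like cells was -0.00 ± 0.33. Lineage and cluster make-up cannot be told apart in the pooled values.

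Wild-type mice held all 3 clusters and give Hist1h2bc by cluster without the lineage models. The mature SP-like cluster held 61.3% to 79.5% of mature cells in CD4-fated and 0.878% to 5.54% in CD8-fated mice. Lineage and cluster are therefore not fully separated in wild-type mice either. In wild-type replicates 1 to 4 it was at 16.9, 7.66, 7.76 and 7.28 CPM in mature SP-like cells, 1.10, 3.68, 4.04 and 1.82 CPM in CD4 SP-like cells and 2.00, 2.19, 1.23 and 2.40 CPM in CD8 SP-like cells. The mature SP-like value was the highest in 4 of 4 mice, from 18 to 50 UMIs there and 2 to 9 in the other clusters. The S list stood at 466 to 501 CPM in CD4-fated and 532 to 687 CPM in CD8-fated mature cells, and the G2M list at 136 to 164 and 189 to 251 CPM, and their part in the member differences was not tested.

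The other lists in mature cells are read beside the same 5.61% and 4.98% of all genes. Of 9 variants tested, H1f0 (1.54) and Cenpa (0.38) were higher in CD4-fated mice. Among 16 mRNA factors Pou2f1 (0.59) was higher, and Slbp (-0.62), Casp8ap2 (-0.49), Ncbp2 (-0.36) and Srrt (-0.34) were lower. Of 16 chaperones Anp32e (-0.43) and Rbbp7 (-0.39) were lower, and Anp32e was at 0.085 in CD8 SP-like cells alone.

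The promoters of the members shared motifs that the rule did not use. RefSeq promoters of GRCm38, from 250 bases before to 50 after the start, were matched for 60 members, and the promoter that both Hist2h2bb genes matched was counted once, which left 59. Hist1h2bq and Hist1h2br, at separate positions, have identical promoter sequences and were each counted. The octamer ATTTGCAT, searched on both strands and known from H2B promoters, occurred in 7 of 17 H2A and 5 of 14 H2B promoters, in no H1, H3 or H4 promoter, and in 1.74% of all 32851 promoters. CCAAT occurred in 50 of the 59 (84.7%), in every H1, H2A, H2B and H3 promoter and in 3 of 12 H4 promoters, against 37.4% of all promoters, and TATAAA in 59.3% against 13.6%. The short GGGCGG occurred in 39.0% against 35.7%. In 3 neighbouring pairs of an H2A and an H2B gene on opposite strands, the same 27 bases lay in both promoters, antisense in the H2A and sense in the H2B promoter. They are shown with the octamer of Hist3h2a, the member that fell most in S-high cells. The stretches are printed 5′ to 3′ on the strand that reads TTTGCAT, which is in capitals.
Hist1h2ae (antisense) and Hist1h2bg (sense): gagtcccttaTTTGCATagaacctcta
Hist1h2ah (antisense) and Hist1h2bk (sense): tttcactttaTTTGCATacgaagttct
Hist1h2aa (antisense) and Hist1h2ba (sense): attccccttaTTTGCATgcacccagca
Hist3h2a (antisense): gccttcctaaTTTGCATatgccttacc

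Members with the octamer differed in direction and size. Hist1h2ae and Hist1h2bg rose by 4.90 and 2.08 in S-high cells, Hist1h2bk by 4.96, and Hist3h2a, whose window held the same motif, fell by 1.48. Hist1h2aa and Hist1h2ba, both germ cell genes, did not pass the filter in any comparison.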

How the data were processed

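The deposited matrices hold raw UMI counts per gene and cell, which the authors made with Cell Ranger 3.1.0 (by the submitters' processing notes) from reads mapped to the mouse mm10 reference, with no normalization for depth. The members, lists and tests were chosen with earlier results of these data known.

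Cells were kept with at most 15% mitochondrial UMIs, at least 200 genes, 1000 to 10000 antibody UMIs and at least 70 antibodies. Doublets were called from simulated doublets at 0.8% per 1000 barcodes and removed (2763 of 72054 cells). Clusters came from 2000 variable genes without the members, 30 principal components, 20 neighbours and the Leiden algorithm at resolution 1.0 (leidenalg 0.10.2, igraph 0.11.9), and were named from fixed markers.

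Counts were summed per mouse and class where at least 30 cells were present, with both lanes of wild-type replicates 4 and 5 added. The mouse was the replicate. Sums were tested with edgeR 4.0.16 (glmQLFit and glmQLFTest, TMM, filterByExpr, R 4.3.3), with Benjamini-Hochberg adjustment over all genes, after tests on simulated counts. Comparisons of classes had the mouse as a block, because both classes came from the same animal. DESeq2 1.42.0 and 91 alternatives in all were tried. Genes were named by rule: the 8 called members with the largest change in each direction, the 10 with most UMIs, Hist1h2bc, and up to 4 called genes per list and direction. Other genes named were chosen after their values were seen. Sequence came from GRCm38. A reading of free RNA per lane was not made.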

Additional observations from a re-analysis of the deposited data

Results flagged for a closer look

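Of 72 values of wild-type mice checked for a mouse far from the others, 8 had a gap past Dixon's limit, where chance flags about 1 in 20. Hist1h4h of wild-type replicate 5 stood apart in non-cycling cells (102 CPM, others 2.69 to 29.4), in G2M-high cells (862 CPM, others 29.6 to 262) and in quiescent DP-like cells (163 CPM, others 8.86 to 39.3). Wild-type replicate 4 stood apart for Hist1h1e in signaled DP-like cells (73.0 CPM, others 26.4 to 29.0), and in mature cells for Hist1h1b (18.4 CPM, others 1.31 to 4.03) and Hist1h1c (38.5 CPM, others 19.0 to 20.4). Wild-type replicate 3 stood apart for Hist1h2ae in G2M-high cells (1831 CPM, others 558 to 869) and for Hist1h2bc in signaled DP-like cells (12.2 CPM, others 1.74 to 2.94). Replicates 4 and 5 were the unsorted wild-type mice of experiment 3, so that sort and experiment cannot be told apart for them.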

How the results depend on the processing

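Counts were too low for 21 of 69 members to pass the filter in S-high against non-cycling cells, and the lineage tests rested on 8 mice for mature cells. The member counts below are given without the share of all genes called, and show only how the member calls moved.

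Leaving out each mouse in turn gave 41 to 44 members higher and 3 lower in S-high against non-cycling cells, 52 to 56 higher and 0 lower in G2M-high against non-cycling cells, 0 higher and 51 to 53 lower in S-high against G2M-high cells, 0 higher and 15 to 19 lower in mature against quiescent DP-like cells, 0 higher and 9 to 13 lower in signaled against quiescent DP-like cells and 0 higher and 25 to 29 lower in late-marker against early-marker cells. For lineage it gave 0 and 0 in S-high cells, 0 to 1 higher and 0 to 1 lower in signaled DP-like cells, and 1 to 3 higher and 0 to 4 lower in mature cells.

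Without the low-count filter 42 members were lower in mature and 29 in signaled against quiescent DP-like cells, 44 in late-marker S-high cells, and 1, 1 and 5 in the lineage tests of S-high, signaled DP-like and mature cells. Within experiment 3 alone 1 member was lower in G2M-high against non-cycling cells. In experiment 1 alone 35 were lower in S-high against G2M-high cells and 0 in late-marker cells, where a cut of 6 UMIs gave 9. That 0 rested on AND replicate 1 and wild-type replicate 1 alone. In cells high in 1 list and low in the other, chosen after the data were seen, 1 member was higher and 24 lower, with Rbbp4 at 0.35 and Asf1b at 0.11 (reversed). RNA totals without TMM reversed Cenpa (-0.047) and Lsm1 (-0.12) in mature cells, and moved the median of all genes from -0.08 to -0.20 in S-high, from -0.05 to -0.16 in G2M-high and from -0.00 to -0.32 in mature cells. In late-marker cells this scaling moved the share of all calls that were higher from 50.6% to 39.4%.

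In lineage tests of signaled DP-like cells, resolution 0.6 gave 1 lower and MHC-deficient mice alone 1 higher and 1 lower. In mature cells, no family covariate gave 1 higher and 1 lower, MHC-deficient mice alone 4 higher and 7 lower, 1500 UMIs 0 lower, and DESeq2, resolution 0.6 and the replicate block 1 lower each. Of single clusters, mature SP-like gave 0 and 0, CD4 SP-like 0 higher and 1 lower, and CD8 SP-like 1 higher and 0 lower. The mature SP-like fit held 1 CD8-fated mouse, OT-I replicate 1, assumed to vary like the others, and no change of direction is read from its signs (adjusted p from 0.39 to 0.996). Reversed there were, in mature SP-like cells, Rbbp7 (0.39), Anp32e (0.015), Cenpa (-0.98), Slbp (0.22), Hist3h2ba (-0.15), Hist3h2a (-0.58), Hist1h1e (0.23), H1f0 (-0.091) and Ncbp2 (0.10), in CD4 SP-like cells Hist3h2ba (-0.14), and in CD8 SP-like cells Anp32e (0.085) and Hist1h2bj (0.67). The cause of these changes was not tested.

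With no replicate block the counts were 44 higher and 2 lower in S-high, 55 higher in G2M-high, 50 lower in S-high against G2M-high, 16 in mature, 10 in signaled DP-like and 21 in late-marker cells. With the replicate block across lineages, 0 members were called in S-high and signaled DP-like cells, and 3 were higher and 1 lower in mature cells. Same-numbered mice correlated at 0.09, 0.76 and 0.13 in S-high cells of the MHC-deficient, OT and Rag1-/- families, and at 0.03 and 0.05 in signaled DP-like and mature cells of MHC-deficient mice, so not every pair was over 0.1. For AND and F5 mice the number is also the experiment, so there it stands for a batch, and within experiment 3 the OT numbers went with a shared deviation that the labels do not explain.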
